A study of Mus musculus with 42 samples.

Results

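Foxq1 (forkhead box Q1) was followed as a single gene in the livers of 42 male mice, 7 in each of 6 groups, and it was the 1 gene taken out of the 19758 that were listed in at least 1 of 6 expression tables. It was chosen because the study had singled it out among the genes that differed between KO mice with and without resolvin E1 (RvE1), so its values in that comparison are given as a description. All mice were on a C57BL/6J background. WT lean and KO lean mice ate a diet with 10% of its calories from lard, and the obese groups ate one with 60%, from 6 weeks of age for 15 weeks. KO mice carried a CRISPR/Cas9-edited, inactive gene for ChemR23, a receptor of RvE1 encoded by Cmklr1, and WT mice were their littermates. The WT obese+RvE1 and KO obese+RvE1 groups received 300 ng of RvE1 by intraperitoneal injection on 4 consecutive days, the other mice received ethanol in saline, and all livers were taken on day 5 after a fast of at least 4 hours.

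Foxq1 is a transcription factor of the forkhead family, whose members bind DNA through a winged helix domain. It is known for the differentiation of hair and of stomach mucous cells, and the study links a decrease of Foxq1 to impaired glucose homeostasis. Another forkhead factor, FoxO1, turns on gluconeogenic genes in fasting. RvE1 is a lipid mediator made from eicosapentaenoic acid that acts on inflammatory cells through ChemR23. The study proposes the leukotriene B4 receptor BLT1 as a likely route of RvE1 that does not need ChemR23. In the mouse genome (GRCm38, also named mm10; GENCODE M21 annotation) Foxq1 lies on the plus strand of chr13:31556134-31560976 with 1 exon of 4843 bases, and its identifier there is ENSMUSG00000038415.10.

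The libraries held 15992525 to 43841120 reads on the listed genes (median 24298289.5), of which 189 to 4100 fell on Foxq1, so that counting error was at most 7.27% of any Foxq1 value. Cmklr1, the edited gene, was lower in KO lean than in WT lean mice (Log2FC -2.23 ± 0.24 SE, adjusted p = 0.00049 in limma) and ranged from 0.192 to 1.13 CPM (a gene's reads as a share of the mouse's reads on the 12742 genes listed in all 6 tables, scaled so that all mice can be set side by side) in the 3 KO groups, against 1.38 to 6.99 in the 3 WT groups. Hepatocyte markers summed to at least 39686 CPM in every mouse. Of the 8 markers of stomach epithelium, a tissue known for Foxq1, 2 were listed in all 6 tables, and they summed to at most 4.6 CPM in any mouse.

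Foxq1 was among the more abundant forkhead genes of these livers and the one that varied most between mice of a group. Of 44 forkhead genes looked for, 17 were listed in all 6 tables. Per kb of exon, the mean level of Foxq1 over the 42 mice was 9.77 CPM, the sixth highest. Foxa3 (54.7), Foxa2 (18.0) and Foxa1 (10.4), factors that open liver chromatin, and Foxo4 (12.5) and Foxo1 (11.5) stood above it, and Foxk2 (5.97) came next below. The SD of Foxq1 among mice of the same group was 1.01 on the log2 scale, whereas the other 16 forkhead genes had SDs from 0.172 (Foxo4) to 0.63 (Foxa2). Across 9221 genes with a mean of at least 5 CPM the median SD was 0.308, and 92 genes (0.998%) had a larger SD than Foxq1.

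**Figure D1:**
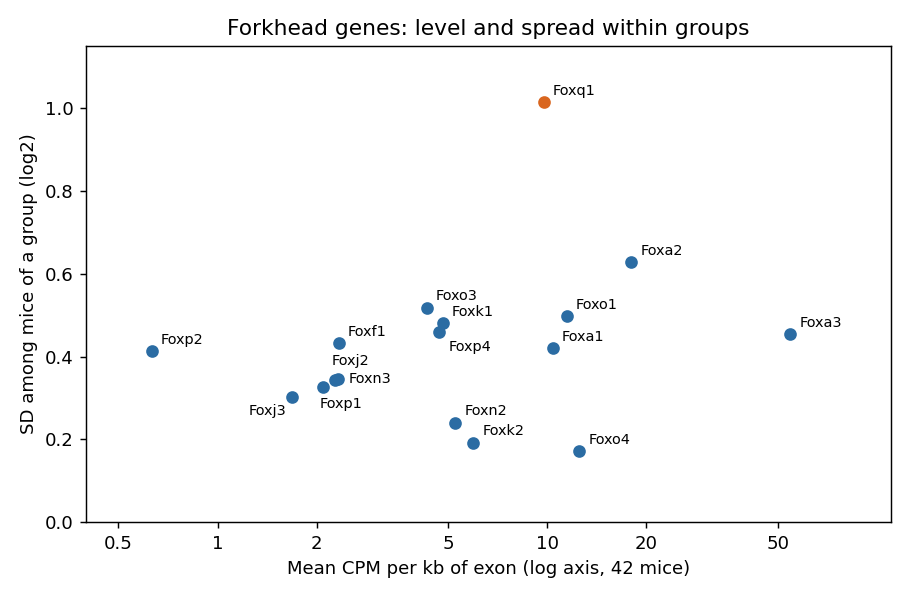
The 17 forkhead genes listed in all 6 tables, with the mean CPM per kb of exon over 42 mice on a log x axis and the SD among mice of a group (log2 CPM) on the y axis. Foxq1 (orange) sits at a middle level of 9.77 and at the top of the spread, 1.01.

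In WT lean mice Foxq1 had a lowest, median and highest level of 10.8, 43.9 and 144 CPM, and in KO lean mice of 8.76, 29.7 and 89.2. In WT obese mice the values were 17.2, 69.8 and 113, and in KO obese mice 10.2, 57.8 and 104. The lean mice were thus spread over at least 10.2-fold in each genotype, and in each vehicle-treated obese group 1 mouse (27-2L in WT, 10RL in KO) was the lowest, below the other 6, which held at least 44.2 in WT and 54.1 in KO mice. In WT obese+RvE1 mice the lowest, median and highest values were 19.7, 29.7 and 71.2. In KO obese+RvE1 mice they were 11.4, 23.9 and 32.5. No RvE1-treated KO mouse reached the level of the 6 higher KO obese mice, while among RvE1-treated WT mice 1 animal (7R) stood above the WT obese median.

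**Figure D2:**
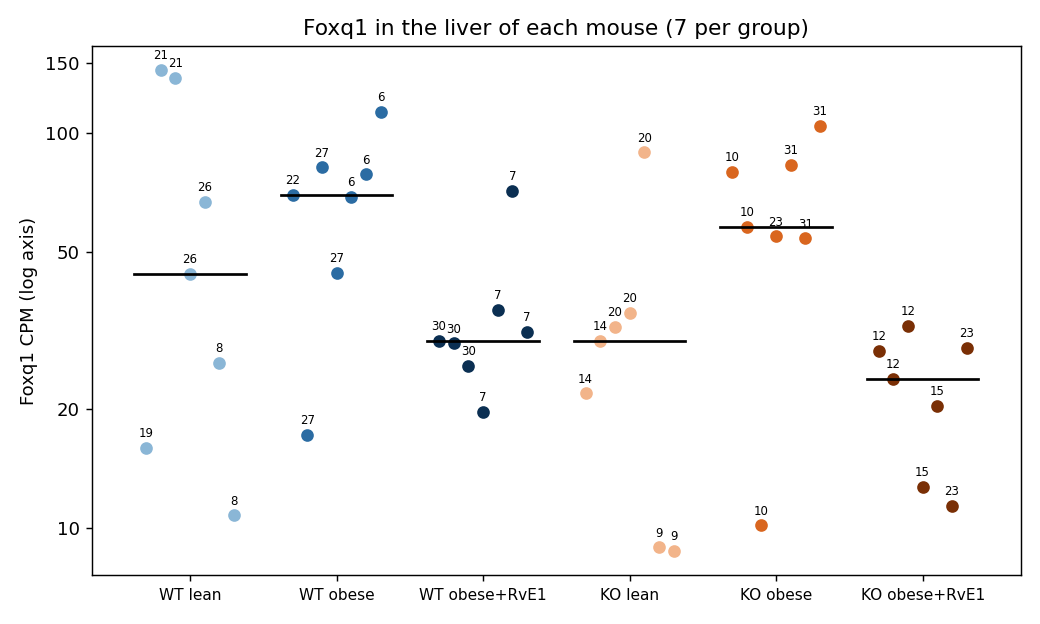
Foxq1 in CPM (log y axis) for each of the 42 mice, by group, with the group median as a bar and the leading number of the mouse's identifier above its point. The 7 KO obese+RvE1 mice lie between 11.4 and 32.5, and 6 of the 7 KO obese mice lie at or above 54.1.

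Ordered by mean, the groups ran WT obese (67.6 ± 30.2 CPM, SD, n = 7), WT lean (63.6 ± 56.0), KO obese (63.3 ± 29.8), WT obese+RvE1 (34.7 ± 16.8), KO lean (32.3 ± 27.3) and KO obese+RvE1 (22.5 ± 8.10). Each pair of neighbours in this order differed by less than the larger of their SDs. The widest step, 28.7 CPM, was between KO obese and WT obese+RvE1, where the larger SD was 29.8.

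Within a comparison, values are the authors' normalized counts of that table, and changes are differences of log2(normalized count + 1) fitted by limma. With RvE1, Foxq1 in KO obese mice had a median of 566 normalized counts (range 292 to 849) against 1520 (221 to 2699) with vehicle. All 7 treated mice lay below the vehicle median, and 6 of the 7 vehicle mice lay above the highest treated mouse. The Log2FC was -1.41 ± 0.43 (SE), a level 2.65-fold lower, with a 95% interval from -2.33 to -0.49. Since Foxq1 was chosen on these mice, no test is given, and the interval does not allow for that choice. As a description, 37 of the 14207 genes there had a larger decrease.

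WT mice were not in the comparison from which the study named Foxq1, but Foxq1 was followed here with earlier results of these data known. In WT obese+RvE1 mice the median was 818 normalized counts (447 to 1508) against 1597 (441 to 2465) in WT obese mice. All 7 treated mice lay below the vehicle median and 5 of the 7 vehicle mice above the highest treated one, but the ranges overlapped. The Log2FC was -0.88 ± 0.32 (SE; 95% interval -1.57 to -0.20), a level 1.85-fold lower. The difference had an unadjusted p of 0.0143 in limma and of 0.0355 in a two-sided exact permutation test over the 3432 splits of the 14 mice, but did not pass after adjustment over the 13085 genes tested (adjusted p = 0.772). With the leading number of the mouse identifier as a random block the unadjusted limma p was 0.0787. No gene of the 13085 was called in this comparison (0% of genes at adjusted p below 0.1 and a fold change above 1.5), although 795 had an unadjusted p below 0.05. edgeR called 1 gene and DESeq2 15.

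In KO mice with RvE1 limma called 0 of 14207 genes (0%), with 1179 at an unadjusted p below 0.05, edgeR called 0 and DESeq2 14. By value, the decrease of Foxq1 was larger in KO than in WT mice by 0.52 on the log2 scale. The 95% interval of the KO minus WT difference, which does not allow for the choice of Foxq1, ran from -1.64 to 0.59. The mean of Foxq1 was thus lower with RvE1 in mice with and without the receptor, without passing adjustment in WT mice. Whether the 2 decreases differ in size was not tested, because the comparison rests on the KO mice used to choose the gene.

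**Figure D3:**
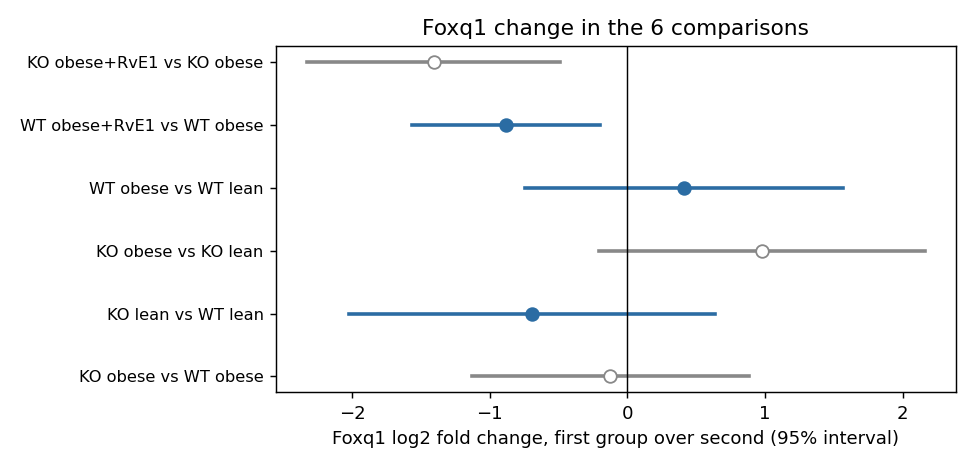
Log2FC of Foxq1 in the 6 comparisons (x axis, first group over second), with 95% intervals from limma, 7 mice per group. Filled blue points are comparisons that could be tested and open grey points those that share mice with the choice of the gene. The RvE1 points are -1.41 in KO mice, a description of the mice used to choose the gene, and -0.88 in WT mice, with an interval from -1.57 to -0.20.

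For diet in WT mice and for genotype in lean mice, limma on unweighted libraries found no difference in Foxq1 beyond the spread between mice. Between WT obese mice (median 1363 normalized counts, 376 to 2101) and WT lean mice (995, 264 to 3270) the Log2FC was 0.41 ± 0.55 (SE, adjusted p = 0.747 in limma, exact permutation p = 0.523), in a comparison where 3.8% of 14012 genes were called. Its direction was not stable, since edgeR gave -0.02 and DESeq2 -0.03. Between KO lean (650, 209 to 2586) and WT lean mice (1037, 274 to 3392) the Log2FC was -0.69 ± 0.63 (adjusted p = 0.506 in limma, exact permutation p = 0.359), where 6.65% of 13031 genes were called. Weighting the libraries by quality moved it to -1.42 with an adjusted p of 0.0764.

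The other contrasts held the KO obese mice and are given without a test. Foxq1 had a Log2FC of 0.98 ± 0.56 between KO obese and KO lean mice, where 10.4% of 14213 genes were called. Between KO obese and WT obese mice it was -0.12 ± 0.48, where 0.0141% of 14162 genes were called, and it became 0.31 when the low KO mouse 10RL was left out.

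Mouse identifiers in the labels open with a number whose meaning is not given in the sources used here. In lean livers Foxq1 differed less, by median, between mice of a group with the same number than between those with different numbers. Both WT lean mice numbered 21 held the highest levels of the study, 137 and 144 CPM, and both KO lean mice numbered 9 held the lowest, 8.76 and 8.93. The 3 KO lean mice numbered 20 ran from 32.3 to 89.2, and the 2 WT lean mice numbered 8 held 10.8 and 26.2. Over both lean groups, the 8 pairs of mice with the same group and number had a median difference of 1.44-fold and the 34 pairs with different numbers 3.36-fold. In vehicle-treated obese mice the medians were 1.74-fold in 12 same-number pairs and 1.54-fold in 30 others, and in RvE1-treated mice 1.47-fold in 14 and 1.45-fold in 28. Of 17 numbers 1, number 23, was shared by 2 groups. Its KO obese mouse held 54.7 CPM and its 2 KO obese+RvE1 mice held 11.4 and 28.6. For all other mice the number and the group cannot be told apart.

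Genes that followed Foxq1 from mouse to mouse were chosen in the 14 mice of the KO obese and KO obese+RvE1 groups, after subtracting each group's mean, as the 10 highest and 5 lowest Pearson correlations among 11010 genes. They were then tested in mice that had not entered the choice, the 14 WT obese and WT obese+RvE1 mice and the 14 lean mice, by permuting Foxq1 within groups 100000 times, with adjustment over the 15 genes and both sets. Phlda1, which encodes a pleckstrin homology-like domain protein, stood first. Its r with Foxq1 was 0.86 in the mice used to choose it (0.63 without the 2 mice farthest from the median of Foxq1). In the obese WT mice r was 0.87 (permutation p = 9e-05, adjusted p = 0.00135; rho = 0.80; 0.83 without the 2 farthest mice), and in the lean mice it was 0.94 (p = 2e-05, adjusted p = 0.0006; rho = 0.93; 0.94 without the 2 farthest). With the means of each group and identifier number subtracted, r was 0.92 in the obese WT mice (adjusted permutation p = 0.0708) and 0.75 in the lean mice, where it no longer passed (adjusted permutation p = 0.154). It ranked second of 13084 genes in the obese WT mice and sixth of 13030 in the lean mice.

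The level of Phlda1 was also lower with RvE1 by value. In WT obese mice its lowest, median and highest values were 112, 215 and 328 CPM, and in WT obese+RvE1 mice 66.6, 118 and 234. In KO obese mice they were 67.3, 159 and 277, and in KO obese+RvE1 mice 51.1, 100.8 and 140, so the groups overlapped in both genotypes. The Log2FC was -0.68 ± 0.23 (SE) in WT mice, with an unadjusted p of 0.0101 and an adjusted p of 0.772 in limma, and -0.93 ± 0.32 in KO mice, given without a test.

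Of the other 14 chosen genes, few held in mice outside the choice. In the obese WT mice Col13a1, a transmembrane collagen (r = 0.71, permutation p = 0.0055, adjusted p = 0.0275; rho = 0.67), and Gfod1 (r = 0.61, permutation p = 0.0278, adjusted p = 0.0926; rho = 0.58) passed beside Phlda1. In the lean mice Pex26, a peroxisome import factor (r = 0.85, permutation p = 0.00064, adjusted p = 0.0048; rho = 0.85), and Bcl3, an inhibitor of NF-kB family (r = 0.80, permutation p = 0.00115, adjusted p = 0.0069; rho = 0.83), passed. So did Abtb2 (r = 0.67, adjusted permutation p = 0.083) and Col13a1 (r = 0.60, adjusted permutation p = 0.0926). Mettl15, a mitochondrial ribosomal RNA methyltransferase, was the 1 gene of the 5 lowest that passed, at r = -0.81 in lean mice (permutation p = 0.0006, adjusted p = 0.0048; rho = -0.68), while its r in obese WT mice was 0.21. The remaining 8 genes (Id2, Gata4, Aste1, Tfeb, Ikbip, 2700094K13Rik, Tmem184c and Nxpe2) passed in neither set in the main setting, with r from -0.40 to 0.60. Without the 2 farthest mice, Phlda1 was the only 1 of these genes that still passed in lean mice, while the adjusted permutation p was 0.109 for Pex26, 0.133 for Bcl3 and 0.145 for Mettl15, and it was 0.145 for Col13a1 in obese WT mice. There Mettl15 had an r of -0.64 without the 2 farthest mice, and Aste1 passed at an r of 0.78 (adjusted permutation p = 0.0857). With equal read totals Aste1 and Id2 also passed in obese WT mice (adjusted permutation p = 0.0739 for each). With the means of each group and identifier number subtracted, 0 of the 15 genes passed in lean mice, and 1, Phlda1, in obese WT mice.

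**Figure D4:**
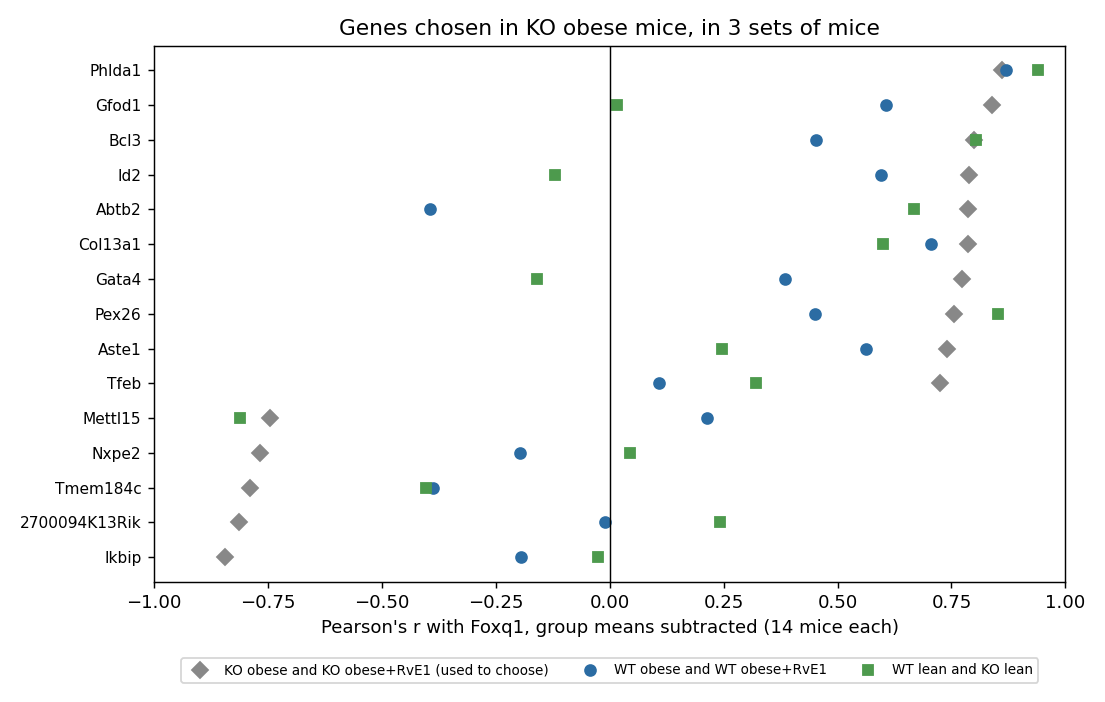
Pearson's r with Foxq1 (x axis) for the 10 highest and 5 lowest genes of the KO obese and KO obese+RvE1 mice (grey diamonds, used to choose), in the obese WT mice (blue) and in the lean mice (green), 14 mice each, group means subtracted. Phlda1 lies at 0.86, 0.87 and 0.94.

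When every gene was fitted on Foxq1 beside the group in limma, the obese WT mice and the lean mice differed in how many genes passed. Foxq1 itself varied more in the lean mice. Its SD was 88.0% of the mean in WT lean and 84.5% in KO lean mice. In WT obese and WT obese+RvE1 mice it was 44.7% and 48.6%. The part of this spread in the counts was not tested. In the obese WT mice 0 of 13084 genes (0%) passed an adjusted p of 0.1, 624 had an unadjusted p below 0.05, and Phlda1 ranked first with an adjusted p of 0.143 (0.969 without the 2 farthest mice, 27-2L and 7-2L, and 0.064 with the identifier number as a block). In the lean mice 2265 of 13030 genes (17.4%) passed, 1154 rising and 1111 falling with Foxq1, among them Phlda1 with an adjusted p of 4.33e-05. Without the 2 lean mice farthest from the median (20R and 8RL) 503 genes passed. A fit that took the identifier number as a random block passed 1793 genes.

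The associated genes in lean mice included forkhead and clock genes. Of 19 forkhead genes other than Foxq1 tested there, 7 rose and 2 fell with Foxq1, against 17.4% of all genes. Without the 2 farthest mice 3 of the 19 passed, against 3.86% of all genes. Of 20 genes of the core clock and its output, which set daily rhythms of transcription, 19 were tested in lean mice, of which 7 rose and 2 fell with Foxq1, against 17.4% of all genes. Leaving out the 2 farthest mice, 5 of the 19 passed, against 3.86% of all genes. Named after their values were seen, Usp2 (r = 0.86, adjusted p = 0.0011) and the repressor Cry1 (r = 0.84, adjusted p = 0.0018) rose with it in limma. The activator Clock fell with it (r = -0.81, adjusted p = 0.0072 in limma), but not without the 2 farthest mice (adjusted p = 0.16). In the obese WT mice 0 of 18 clock genes passed, and their median r was 0.067, against -0.019 for all genes. The part of time of day or feeding in the Foxq1 levels was not tested, as no collection time is given per mouse in the labels.

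Glucocorticoid targets and genes of glucose metabolism were also among the 17.4% of genes associated with Foxq1 in lean mice. Of 13 glucocorticoid targets 5 rose and 1 fell with Foxq1 in lean mice, led by Zbtb16 (r = 0.88, adjusted p = 0.00066 in limma) and Fkbp5, a chaperone of the glucocorticoid receptor (r = 0.86, adjusted p = 0.0018). Of 24 genes of gluconeogenesis and FoxO1 control 8 rose and 0 fell in lean mice. Without the 2 farthest mice, 2 of the 13 glucocorticoid targets and 3 of the 24 genes of the glucose list passed, against 3.86% of all genes. Among the 8 genes of the glucose list that rose over all lean mice in limma were Ppp1r3b, a glycogen-targeting phosphatase subunit (r = 0.87, adjusted p = 0.001), and Foxo1 itself (r = 0.79, adjusted p = 0.006, and 0.186 without the 2 farthest mice). The gluconeogenic enzymes Pck1 and G6pc did not pass, with r of 0.11 and -0.44 in lean mice and -0.44 and -0.40 in obese WT mice. None of these lists had a member that passed in the obese WT mice. Members of other lists also passed in the same lean mice, where 17.4% of all genes did. Of 8 hepatocyte markers 3 rose and 0 fell (median r 0.59), of 3 lymphocyte markers 2 fell, and of 4 adipocyte markers 1 rose and 2 fell. Of 8 endothelial markers 2 rose, a share near that of all genes, and the r of the 8 ran from -0.51 to 0.79 (median -0.06). Of 16 Wnt and beta-catenin targets 1 rose and 6 fell (median r -0.49). Without the 2 farthest mice 1 of these Wnt targets and 0 of these cell type markers passed, and the part of these cells in the associations was not tested.

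Genes of the growth hormone pathway were looked at next, since the liver reads pulses of the hormone through STAT5, which turns on the feedback inhibitors Cish and Socs2 and represses Bcl6. Cish was also among the RvE1 genes that the study named in KO mice. Its r with Foxq1 was 0.67 in KO obese, 0.78 in obese WT (permutation p = 0.00036; rho = 0.84, permutation p = 0.00032) and 0.80 in lean mice (permutation p = 0.00184; rho = 0.75, permutation p = 0.00566). In limma over all genes the adjusted p was 0.555 in the obese WT and 0.0043 in the lean mice, and without the 2 farthest mice r was 0.040 in the KO obese, 0.66 in the obese WT and 0.65 in the lean mice, where the limma call was lost (adjusted p = 0.138). Bcl6 had r of -0.71 in KO obese, -0.63 in obese WT (permutation p = 0.0371, limma adjusted p = 0.965) and -0.46 in lean mice (permutation p = 0.124, limma adjusted p = 0.199). Without the 2 farthest mice these were -0.29, -0.18 and -0.35. Socs2, the other feedback inhibitor, had an r of -0.289 in obese WT mice (rho = -0.007), opposite in sign to that of Cish. Over the genes of the pathway the median r was 0.157 in KO obese, -0.116 in obese WT and 0.216 in lean mice. For all genes it was -0.009, -0.019 and -0.005. Foxa2, a forkhead factor of the hepatocyte, had r of 0.61, 0.75 and 0.88 (limma adjusted p = 0.965 in obese WT and 0.00093 in lean mice). These genes were named after their values were seen. Of the 14 genes of the pathway 2 (Cish and the receptor gene Ghr) rose with Foxq1 in lean mice, against 17.4% of all genes, and 0 of 13 passed in obese WT mice. Without the 2 farthest lean mice neither passed (Ghr adjusted p = 0.181 in limma).

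**Figure D5:**
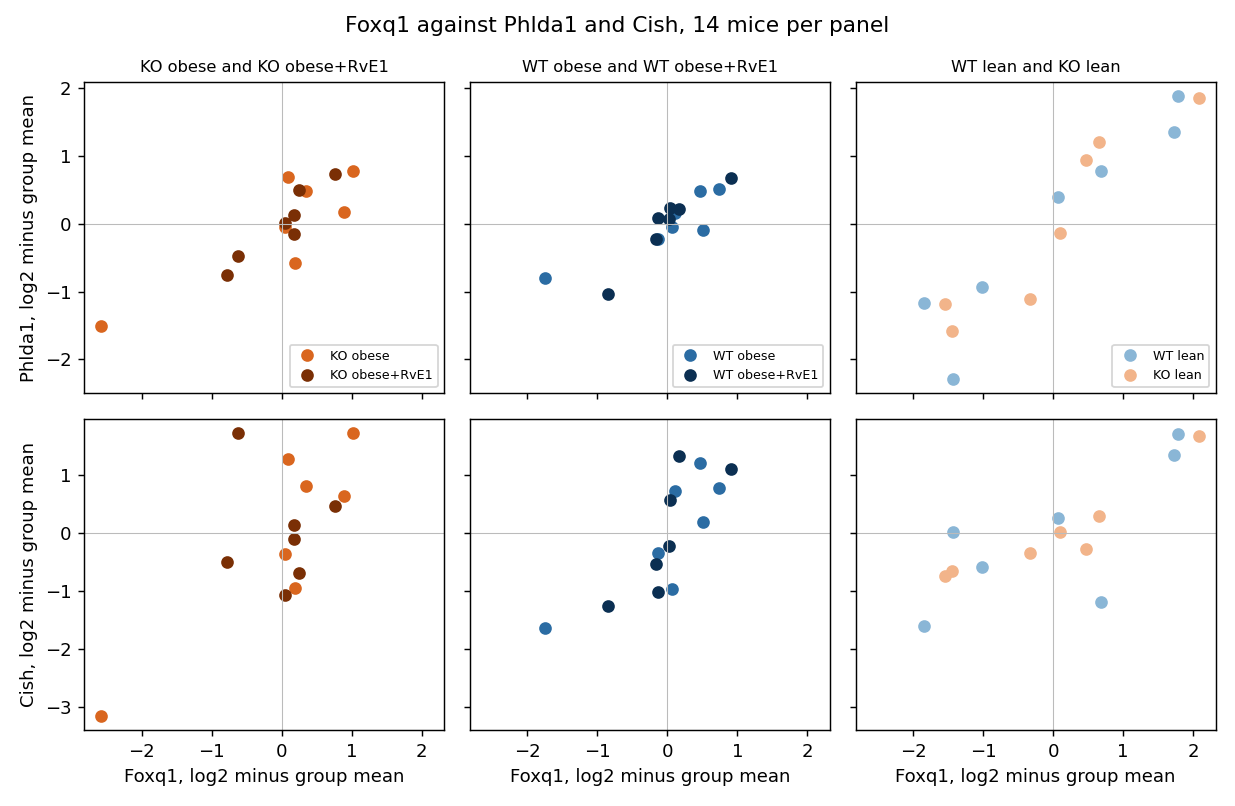
Foxq1 (x axis) against Phlda1 (top) and Cish (bottom), each as log2(normalized count + 1) minus its group mean, 14 mice per panel, for KO obese, WT obese and lean mice from left to right. Phlda1 rises with Foxq1 in each set, and the lowest mouse of the KO obese set, 10RL, is also the lowest of that set for both other genes.

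Cish was lower with RvE1 in both genotypes by value. Its lowest, median and highest levels were 7.34, 22.3 and 54.6 CPM in WT obese and 4.30, 7.71 and 25.2 in WT obese+RvE1 mice, and 2.97, 30.6 and 74.7 in KO obese and 2.39, 6.09 and 16.8 in KO obese+RvE1 mice. The groups overlapped in each genotype. Its Log2FC was -1.24 ± 0.48 (SE) in WT mice (unadjusted p = 0.0191, adjusted p = 0.772 in limma) and -2.18 ± 0.63 in KO mice, given without a test. Socs2 had Log2FC of -0.74 ± 0.34 and -1.63 ± 0.46, and Bcl6 of 0.03 ± 0.30 and 0.39 ± 0.37, in WT and KO mice. Over the pathway list the median Log2FC with RvE1 was -0.11 in WT (13 genes tested, all genes 0.0047) and -0.43 in KO mice (14 genes, all genes -0.0082), and limma and edgeR called 0 members in either. DESeq2 called Cish in KO mice (Log2FC -2.48), where the study had named it, and 0 members in WT mice.

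The STAT motif TTCNNNGAA, searched on both strands, was looked for in RefSeq promoters (GRCm38.p6, 250 bases before to 50 after each start), where 8.3% of 32851 windows hold at least 1 copy, 0.457% at least 2 and 0.0335% at least 3. Stretches are shown for Cish (chr9:107296652-107296681, plus strand) and Bcl6 (chr16:23981353-23981461, minus strand), the pathway genes described above with more than 1 copy in a window, with the motifs in capitals. In Cish the copies begin at bases 1 and 12 from the start, and in Bcl6 at -168, -122 and -88. Bcl6 has another window at the outer end of the gene (chr16:23988803-23989102), which held 1 copy.
Cish: cccagttTTCCTGGAAagTTCTTGGAAatc
Bcl6: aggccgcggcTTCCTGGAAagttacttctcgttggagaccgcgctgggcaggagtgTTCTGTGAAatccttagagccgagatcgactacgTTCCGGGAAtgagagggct
Of the 15 genes chosen for their correlation with Foxq1, 10 had a promoter entry, of which 0 held this motif. Of the 14 pathway genes 12 had an entry, of which 4 held it in at least 1 window. Some genes had more than 1 window, so this count per gene is not comparable with the share per window. A match of letters is a description and no evidence of binding.

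With RvE1, limma and edgeR called no member of the lists in either genotype. Among the members DESeq2 called were Cish, Bbc3 and Nptx1 in KO mice, genes that the study had named from the same mice, and the immediate early gene Myc (Log2FC -1.37) in WT mice. The clock list had a median Log2FC of -0.10 in WT and -0.13 in KO mice, and within it Nr1d1, a clock repressor, had Log2FC of 0.46 ± 0.19 and 0.90 ± 0.32. Among cell type markers, the median Log2FC of 6 neutrophil markers tested in KO mice was -1.64, and the 3 listed in all tables summed to 3.33 to 36.8 CPM in KO obese and 1.43 to 33.0 in KO obese+RvE1 mice. In WT mice the median of the 3 neutrophil markers tested was -0.19. The hepatocyte markers summed to 43852 to 59826 in KO obese and 47816 to 54627 in KO obese+RvE1 mice. The part of these genes in the Foxq1 values was not tested, and fewer cells of a type cannot be told apart from less RNA per cell in whole liver.

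The forkhead family and the genes of glucose control were also counted in the comparisons where Foxq1 was tested. In the WT diet comparison, with 3.8% of all genes called, 0 of 20 forkhead genes were called. In the lean genotype comparison, with 6.65% of all genes called, 1 of 19 was, a share near that of all genes: Foxp1, which was lower in KO lean mice (Log2FC -0.63 ± 0.21, adjusted p = 0.0735 in limma). Of 24 genes of gluconeogenesis and FoxO1 control, 4 fell with the diet in WT mice. They were the insulin receptor substrates Irs1 (Log2FC -0.97 ± 0.18, adjusted p = 0.0072 in limma) and Irs2 (-1.48 ± 0.35), the kinase Pdk4 (-2.10 ± 0.64) and Igfbp1 (-1.47 ± 0.47). In KO lean against WT lean mice 3 fell, namely Irs2 (-1.35 ± 0.38), Sik1 (-1.29 ± 0.37) and Trib1 (-0.76 ± 0.23). In lean KO mice 6 of 7 tested Kupffer cell markers were called higher, among them Cd5l (1.32 ± 0.23, adjusted p = 0.0247 in limma). With the leading number of the mouse identifier as a random block, none of these forkhead, glucose control or Kupffer cell genes was called in the lean genotype comparison, and 2 of the 24 glucose control genes were lower and 1 higher in the WT diet comparison. The lean genotype comparison had 3 calls against 866 and the WT diet comparison 242 against 532.

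Within 500 kb of Foxq1 the annotation held 21 other genes, 4 of them protein coding. Values were available for Foxc1, a forkhead gene 245657 bases away, and Gmds, an enzyme of GDP-fucose synthesis 258603 bases away. Gmds had a Log2FC with RvE1 of -0.08 ± 0.27 in WT mice (adjusted p = 0.994 in limma) and -0.35 ± 0.31 in KO mice. Foxc1 had a Log2FC of 0.12 ± 0.30 with RvE1 in KO mice and was not listed in the WT table. Neither was called in any comparison where it was tested.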

How the data were processed

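Livers of 42 mice were sequenced by the authors as paired-end RNA libraries. Per the paper's methods the reads were aligned to mm10 with Bowtie2, assigned to genes with featureCounts (subread), requiring both ends mapped, and normalized with DESeq2. The versions of these tools were not given. The deposited tables, 1 for each of 6 comparisons of 14 mice, hold a normalized signal per gene and mouse (counts divided by size factors). They also hold the mean of each row, and the authors' log2 fold changes, their standard errors and p-values. The authors' test columns were not used. Whole reads were recovered from the smallest steps of each column: 100% of values came out whole within 0.1 reads, and for 56 pairs of columns holding 1 library in 2 tables the reads were identical.

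The main test was limma 3.58.1 (R 4.3.3, eBayes with trend, two-sided) on log2(normalized count + 1) of genes with a mean of at least 5, with Benjamini-Hochberg adjustment over all genes. CPM were computed from the recovered reads. Calls needed an adjusted p below 0.1 and a fold change above 1.5. Fold changes on this scale understate low genes. Alternatives were edgeR 4.0.16 and DESeq2 1.42.0 on the recovered reads, other scalings and pseudocounts, no filter, library weights, the identifier number as a random block, and each mouse left out. The scripts were checked on simulated data.

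Groups came from the sample titles. Foxq1, the comparisons and the gene lists were chosen with earlier results of these data known. Named genes were Foxq1, the 15 correlated genes, annotated neighbours within 500 kb, Cmklr1 and up to 4 called members of each list per comparison, except where said. The sequence source held no promoter of Foxq1 or Phlda1. Gene names that look like dates were left out. Some members of the gene lists are counted but not reported here by name. The sources do not say that the 7 mice of a group were housed or handled separately, so p-values measure the spread between these mice. Counting intervals cover counting error only.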

Additional observations from a re-analysis of the deposited data

Results flagged for a closer look

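In 24 sets of 7 mice (4 genes in 6 groups, CPM) 5 single values lay far from the other 6 by Dixon's gap criterion. Each was the highest of its set. The criterion was applied to CPM and not to log2 values, and the sets share mice. The count of 5 was thus not set against a chance rate. For Foxq1 these were the WT obese+RvE1 mouse 7R, at 71.2 against at most 35.7 in the other 6, and the KO lean mouse 20R, at 89.2 against at most 35.0. Without 20R the KO lean against WT lean Log2FC of Foxq1 was -1.04. For Cish they were 20R again, at 38.9 in the KO lean group, and the KO obese+RvE1 mouse 15-2L, at 16.8. For Bcl6 it was the KO obese mouse 10RL, at 119, which held the lowest Foxq1 of its group.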

How the results depend on the processing

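In WT mice the RvE1 difference of Foxq1 kept its direction under all 9 other settings and with each mouse left out. Its Log2FC there was -0.97 to -0.88 across settings, with an adjusted p from 0.231 to 1.0. In KO mice the Log2FC was -1.62 to -1.09 across settings, a description only, since Foxq1 was chosen on those mice. Leaving out single mice gave -1.84 (without 10RL) to -1.24 in KO and -1.18 to -0.74 in WT mice. For diet in WT mice the sign was reversed by edgeR (-0.0211) and DESeq2 (-0.0265), and single mice moved it from 0.11 to 0.71. For KO lean against WT lean the value was called only with library quality weights (-1.42), and single mice moved it from -1.04 to -0.39. For KO obese against KO lean single mice moved it from 0.72 to 1.41, and for KO obese against WT obese from -0.41 to 0.31. The cause of these shifts was not tested. Of the 15 correlated genes, 3 passed in the obese WT mice and 6 in the lean mice. With Spearman's rho or with equal read totals 5 passed in the obese WT mice. After means of each group and identifier number were subtracted, an alternative chosen after seeing the data, 1 passed in the obese WT mice (Phlda1) and 0 in the lean mice. Without the 2 farthest lean mice 1 passed (Phlda1). The limma association over all genes, also chosen after seeing the data, gave 2 genes in the obese WT mice with equal read totals and 1 with the number as a random block, and 1410 and 503 genes in the lean mice with equal read totals and without the 2 farthest mice. Counts of called genes fell with the number as a random block, to 242 (from 532) in the WT diet, 750 (from 1476) in the KO diet, 3 (from 866) in the lean genotype and 0 (from 2) in the obese genotype comparison. Asking for an absolute Log2FC above 1.5 left 105, 135 and 11 in the first 3 of these. No paired analysis was possible because the labels give no replicate numbers, and of the leading numbers of the mouse identifiers 1 (number 23) occurs in 2 groups, fewer than a paired fit needs.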
